A study of Rattus norvegicus with 9 samples.

Results

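The genes described here encode the matrix metalloproteases (MMPs), the ADAM and ADAMTS proteases and the tissue inhibitors of metalloproteases (TIMPs) of the rat, followed in spinal cord on day 3 after a T9 contusion. They were chosen by gene symbol among the protein-coding genes of a count table of 36051 genes. Of 74 genes with a matching symbol, 51 had at least 10 counts in at least 3 libraries and are called members below. They comprised 8 secreted MMPs, 6 membrane-bound MMPs, 4 TIMPs, 12 ADAMs, 17 ADAMTS proteases and 4 ADAMTS-like genes. Wild-type rats formed 3 groups of 3 libraries, made from total RNA of the cord. The sham group had the sham operation, the SCI_Veh group the contusion and normal saline, and the SCI_ALA group the contusion and alpha-lipoic acid, a dithiol cofactor given as an antioxidant. Whether replicates came from separate animals is not stated, so the p-values reflect sample-to-sample spread that may be technical.

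MMPs are zinc-dependent proteases that cleave collagens, laminin, elastin and other proteins of the extracellular matrix. Most are made as inactive precursors and are activated by plasmin, furin-like convertases or other MMPs. TIMPs bind the active site and block it. ADAMs sit in the cell membrane and release the outer parts of receptors, cytokines and adhesion molecules, whereas ADAMTS proteases are secreted and include the enzymes that cut aggrecan and versican. In the injured spinal cord this family is known for basement membrane breakdown, leukocyte entry and later matrix remodelling.

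The libraries held 13857771 to 15736132 counts each. Members took 0.116% to 0.191% of counts in sham, 0.242% to 0.331% in SCI_Veh and 0.232% to 0.272% in SCI_ALA. Levels are counts relative to library size (CPM), scaled by TMM factors, and levels of different genes are compared only as FPKM, which is per length. A gene was called at an adjusted p below 0.05 in the edgeR quasi-likelihood test, adjusted over all 16678 genes tested. Mitochondrial genes took 8.59% to 15.7% of counts in sham and 6.40% to 8.10% in the injured libraries. For each library, the rank correlation across genes between its deviation from the mean and gene length was also computed. It was 0.236, -0.187 and 0.340 in sham, 0.0523 to 0.117 in SCI_Veh and 0.0318, -0.284 and -0.457 in SCI_ALA, so the injured groups did not overlap on this measure. Its part in the results was not tested beyond the fit with the length trend removed. That fit left 28 members called in SCI_Veh against sham and 1 between the injured groups, beside 41.2% and 0.12% of all genes.

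Among genes that mark cell types, all 10 of phagocytic macrophages were higher in SCI_Veh than in sham, as were 6 of 8 of microglia and 5 of 5 of dividing cells. Of the other lists tested in this comparison, 1 of 9 neutrophil markers was higher and 2 of 7 endothelial markers were lower. Of 9 fibroblast markers, 3 were higher and 1 was lower. Over all tested genes 19.5% were higher and 18.5% lower, and counts of 1 or 2 markers lie near that background. Lower markers numbered 6 of 8 for astrocytes, 8 of 9 for neurons and 6 of 8 for oligodendrocytes. Of 6 oligodendrocyte precursor markers, 0 were called by edgeR, 0 had an unadjusted p below 0.05 and 0 were called by DESeq2. Schwann cell markers had 1 of 6 higher and 3 lower. Neuron markers summed to at least 1769 CPM and oligodendrocyte markers to at least 18747 CPM in every library, all labelled spinal cord. In bulk tissue, fewer cells of a type and less RNA per cell cannot be told apart.

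Members of the family were called in both directions with injury. In SCI_Veh against sham, 27 of 50 tested members were called, 20 higher and 7 lower, beside 38.0% of all tested genes (19.5% higher and 18.5% lower). Their median log2 change was 0.64, beside 0.003 over all genes, and 19 of the 50 were called and changed by at least 2-fold, beside 22.8% of all genes. All libraries of SCI_Veh lay above all of sham for 20 members and below for 6, beside 25.8% and 23.9% of all genes. Neither count of lower members exceeded its share of all genes. By family, 7 of 11 ADAMs were higher and 3 lower, 4 of 8 secreted MMPs and 2 of 6 membrane-bound MMPs were higher, and 2 of 4 TIMPs were higher and 1 lower. Of 17 ADAMTS proteases 4 were higher and 1 lower, and of 4 ADAMTS-like genes 1 was higher and 2 were lower. Mmp3, Mmp7 and Mmp12 had no sham library at 10 counts and so entered through the injured libraries, where they had to be higher.

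**Figure D1:**
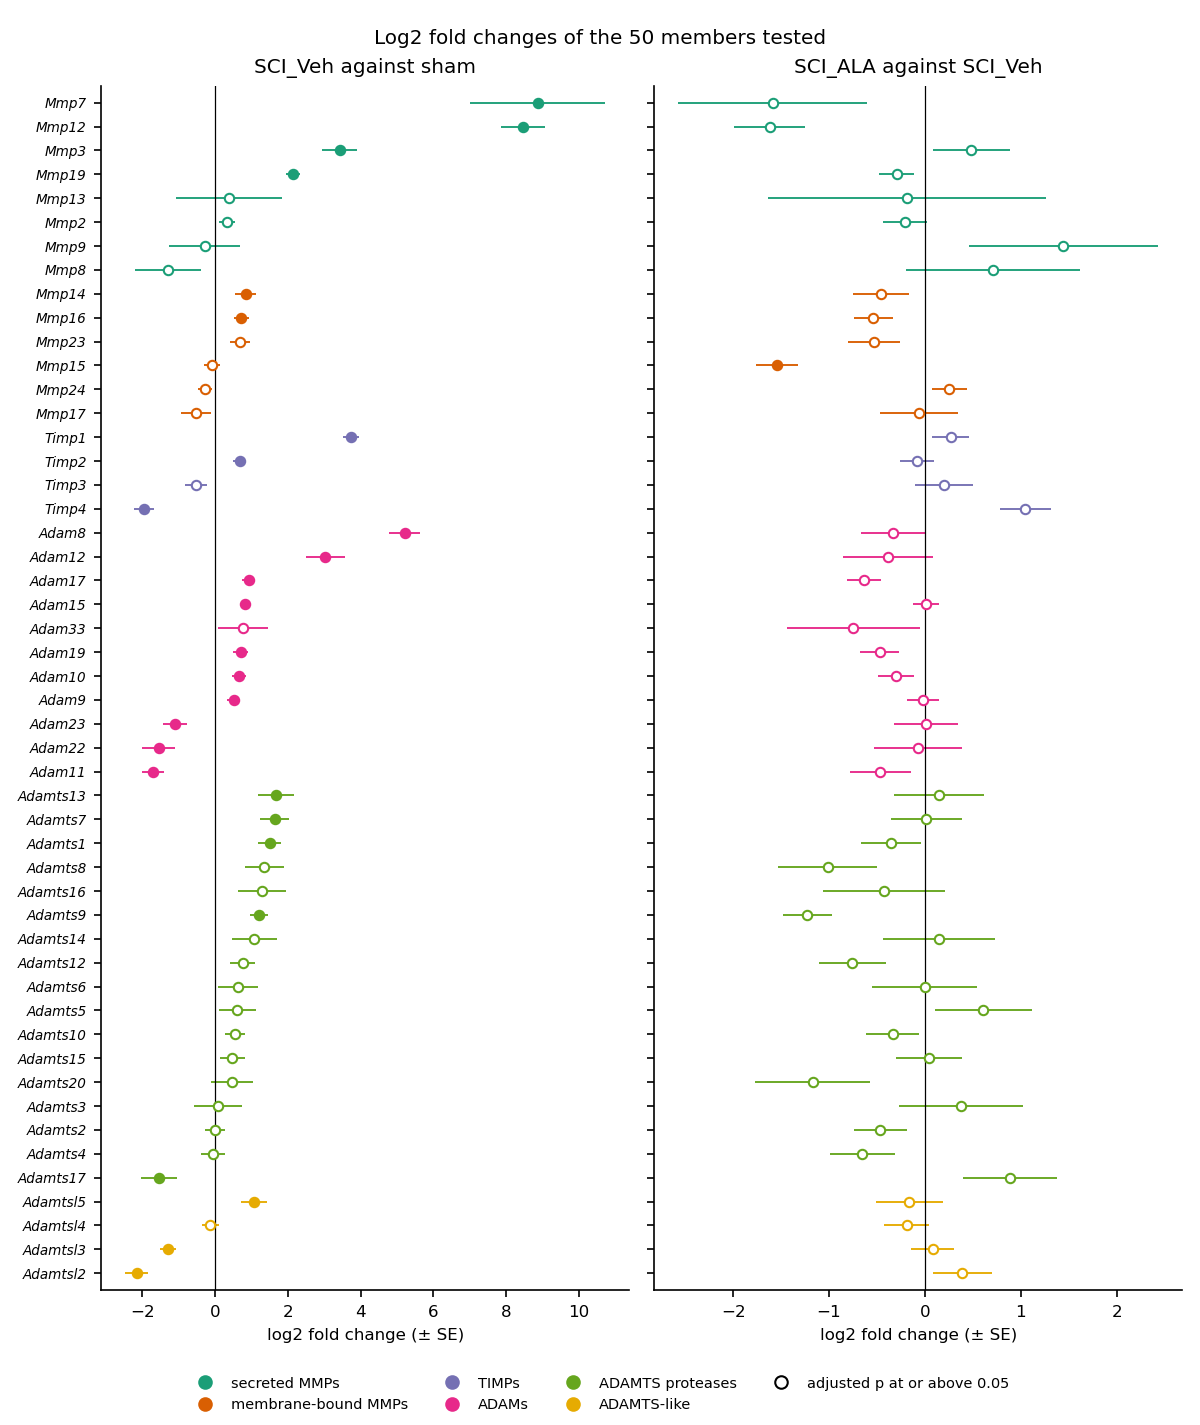
Log2 fold changes (± SE, edgeR) of the 50 tested members in SCI_Veh against sham (left) and SCI_ALA against SCI_Veh (right), grouped by family; filled points passed the adjusted p of 0.05. On the left, 20 members lie filled above 0 and 7 below, while on the right Mmp15 alone is filled; the fitted point of Mmp7, which has no sham counts, depends on the prior count and is no bound.

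Among the inhibitors, Timp1 rose most. This secreted TIMP, known to be induced in reactive astrocytes, stood at 47.7, 48.0 and 45.8 CPM in sham, 503, 800 and 580 in SCI_Veh, and 745, 874 and 646 in SCI_ALA. All 6 injured libraries lay far above all sham libraries, and the injured groups overlapped. The change in SCI_Veh against sham was 13.3-fold (log2 3.73, SE 0.21, adjusted p = 8.29e-07), and in SCI_ALA against sham it was log2 4.0 (SE 0.22, adjusted p = 9.88e-07). Timp1 (ENSRNOG00000010208) lies on chromosome X, 1364786 to 1369384, minus strand of the build Rnor_6.0.

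Timp2, which inhibits MMPs and also helps Mmp14 to activate the Mmp2 precursor, measured 316, 352 and 396 CPM in sham. It measured 561, 649 and 497 in SCI_Veh and 478, 493 and 638 in SCI_ALA. Every injured library was above every sham library (SCI_Veh against sham log2 0.68, SE 0.18, adjusted p = 0.00958). In SCI_ALA against sham the log2 change was 0.60 (adjusted p = 0.0215), with 0.0668 without sham 1 and 0.0940 without SCI_ALA 3. Timp3, a matrix-bound TIMP that also blocks ADAM17 and ADAMTS proteases, ranged from 105 to 225 CPM in sham, 81.3 to 167 in SCI_Veh and 109 to 166 in SCI_ALA. These ranges overlap, and the log2 change of Timp3 with injury was -0.52 (SE 0.30, adjusted p = 0.201).

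Timp4, a TIMP with prominent expression in heart and brain, went the other way. It measured 41.5, 91.3 and 48.0 CPM in sham, 17.6, 13.5 and 15.5 in SCI_Veh and 28.1, 32.8 and 35.4 in SCI_ALA. The 3 groups did not overlap with one another: sham was highest and SCI_Veh lowest. The fall in SCI_Veh against sham was log2 -1.95 (SE 0.27, adjusted p = 0.000199). SCI_ALA stood above SCI_Veh by log2 1.05 (95% interval 0.47 to 1.63), which did not pass over all genes (adjusted p = 0.158, and 0.0315 without sham 2; range over all settings 0.0174 to 0.467). The astrocyte marker sum was 10456 to 16204 CPM in sham, 6743 to 9461 in SCI_Veh and 10164 to 11145 in SCI_ALA; its part in the Timp4 values was not tested. Gfap and S100b made up most of that sum, with means of 6200 and 1527 CPM in SCI_Veh and 8051 and 2172 in SCI_ALA. Of the same list, Gja1 and Slc1a3 had 126 and 86.3 CPM in SCI_Veh and 87.8 and 70.2 in SCI_ALA, and Aqp4 had 252 and 256.

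Timp1, Timp3 and Timp4 each lie inside a synapsin gene on the opposite strand, Syn1, Syn3 and Syn2. Whether counting used strand is not given in the sources used here, so shared reads of the partners could not be told apart. The overlap is of whole gene spans, and exons were not compared. Syn1 held 18724 counts against 63543 for Timp1, and Syn3 326 against 18977 for Timp3. Syn1 fell by 1.28 on the log2 scale with injury (adjusted p = 0.000974), the opposite direction to Timp1. For Timp4 the partner was the larger, with 7505 counts of Syn2 against 4619, and Syn2 fell in the same direction (log2 -1.46, adjusted p = 0.000370). The direction of Timp4 is therefore uncertain if its reads and those of Syn2 were shared, which was not tested. Between the injured groups Syn2 did not pass (log2 0.52, adjusted p = 0.368), but its mean was higher in SCI_ALA, as for Timp4. The same limit holds for that difference.

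Per length, the makeup of the inhibitor pool turned over. In sham, Timp2 had the highest FPKM of all members (212 ± 25.1, SD, n = 3), followed by Timp3 (97.6 ± 35.1), Timp1 (63.3 ± 1.15) and Timp4 (35.1 ± 15.6). Timp3 and Timp1 were within the spread of Timp3 in sham, as were Timp4 and Mmp2 (28.5 ± 8.55). In SCI_Veh, Timp1 stood first at 835 ± 215 FPKM and Timp2 second at 337 ± 48.8, while Timp4 at 8.96 ± 1.07 was 18th. Timp1 made up 13.6% to 16.8% of the summed TIMP FPKM in sham, 62.3% to 68.8% in SCI_Veh and 65.2% to 75.0% in SCI_ALA.

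The summed FPKM of the 4 TIMPs was 408 ± 42.5 in sham, 1248 ± 278 in SCI_Veh and 1423 ± 117 in SCI_ALA (SD, n = 3). The 14 MMPs summed to 111 ± 35.8, 177 ± 20.1 and 136 ± 11.6. The ratio of TIMP to MMP transcripts was 3.76, 4.81 and 3.05 in the sham libraries, 5.95, 8.02 and 7.16 in SCI_Veh and 11.3, 10.9 and 9.31 in SCI_ALA. These ratios describe transcripts, not protein or activity, and no test was made on them. Without Timp1 the ratio was 2.63 to 4.01 in sham, 2.23 to 2.52 in SCI_Veh and 2.73 to 3.24 in SCI_ALA, so that sham and SCI_ALA overlapped. All SCI_Veh libraries then lay below all of sham, the reverse of their order with Timp1.

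**Figure D2:**
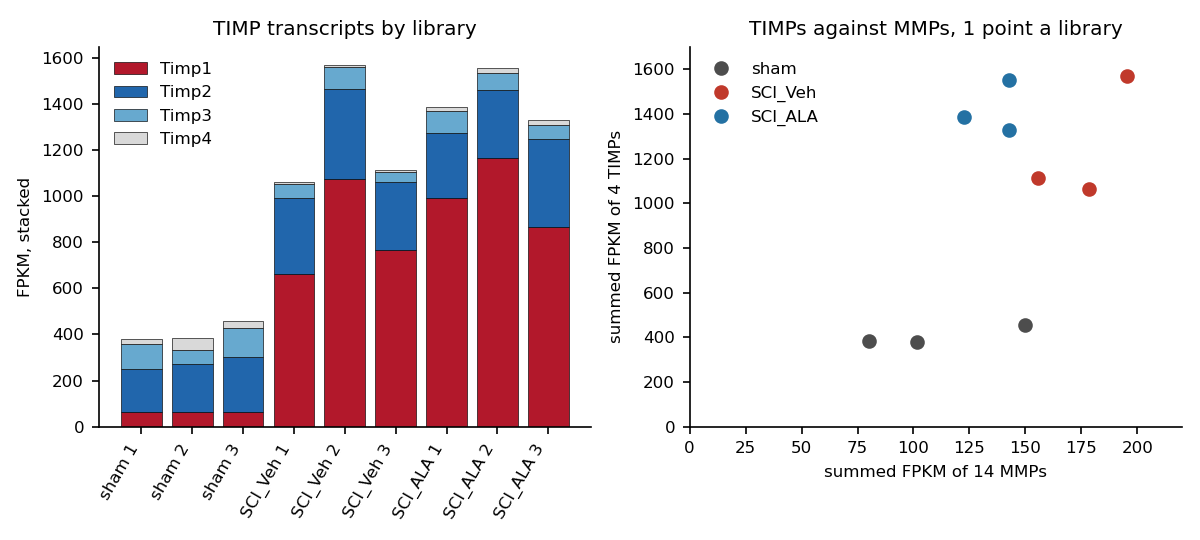
Stacked FPKM of the 4 TIMPs in each library (left) and the summed FPKM of the 4 TIMPs against that of the 14 MMPs, 1 point a library (right). Timp1 fills 62.3% to 75.0% of the bar in the injured libraries and at most 16.8% in sham; on the right, the SCI_ALA points lie to the left of the SCI_Veh points.

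Of the 8 secreted MMPs, Mmp12, Mmp7, Mmp3 and Mmp19 rose with injury, and the 4 others did not pass. Mmp12, macrophage elastase, had 5, 0 and 0 counts in the sham libraries. It reached 47.5, 39.4 and 44.5 CPM in SCI_Veh and 17.7, 8.26 and 16.8 in SCI_ALA. The 3 groups did not overlap. The fitted log2 change was 8.46 in SCI_Veh (SE 0.60, adjusted p = 3.14e-06) and 6.84 in SCI_ALA (adjusted p = 1.73e-05), and both rest on the 5 sham reads: without sham 1 they were 12.33 and 10.71. In FPKM, Mmp12 moved from 50th among the 51 members in sham to 10th in SCI_Veh.

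Mmp7, matrilysin, had 0 counts in all sham libraries. It measured 8.37, 2.74 and 0.742 CPM in SCI_Veh and 2.81, 0.902 and 0.206 in SCI_ALA, a wide spread with overlapping injured groups. Against a floor of 3 counts over the sham group it was at least 57.4-fold higher in SCI_Veh (adjusted p = 0.00516) and at least 18.9-fold higher in SCI_ALA (adjusted p = 0.0199). The latter p was 0.0515, 0.0592 and 0.0533 without sham 1, 2 and 3. The bounds rest on the highest injured library of each group: without SCI_Veh 1 the first was 24.9-fold, and without SCI_ALA 1 the second was 7.90-fold. With single sham libraries left out, which raises the floor, they were 37.0-fold to 40.5-fold and 12.2-fold to 13.3-fold.

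Mmp3, stromelysin 1, which cleaves many matrix proteins and activates other MMP precursors, measured 0.197, 0.633 and 0.533 CPM in sham. It measured 5.15, 2.74 and 6.88 in SCI_Veh and 6.63, 6.66 and 7.35 in SCI_ALA. Injured libraries were all above sham (SCI_Veh against sham log2 3.43, SE 0.48, adjusted p = 0.000223; SCI_ALA against sham log2 3.91, adjusted p = 0.000128). Mmp19, which degrades basement membrane proteins, rose from 15.2, 9.26 and 11.3 CPM in sham to 52.1, 58.4 and 47.6 in SCI_Veh and 37.6, 47.1 and 44.1 in SCI_ALA. That was a log2 change of 2.14 (SE 0.20, adjusted p = 1.39e-05) in SCI_Veh and 1.84 (adjusted p = 4.82e-05) in SCI_ALA.

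The gelatinases and collagenases did not pass. Mmp2, gelatinase A, had the highest mean FPKM of the MMPs in each group, but in SCI_Veh its 35.7 ± 7.97 and the 34.7 ± 12.8 of Mmp14 (SD, n = 3) were within their spread, and Mmp14 was the higher in SCI_Veh 2 and SCI_ALA 1. Mmp2 ranged from 69.4 to 118 CPM in sham, 88.6 to 136 in SCI_Veh and 76.8 to 110 in SCI_ALA. Its log2 change with injury was 0.34 (SE 0.23, adjusted p = 0.267, range over all settings 0.0449 to 0.646); without sham 3 it was 0.62, with the lowest of these p. Mmp9, gelatinase B, measured 5.64, 0.475 and 20.1 CPM in sham, 4.57, 6.54 and 10.5 in SCI_Veh and 9.92, 18.9 and 29.9 in SCI_ALA. The sham values alone span the whole of SCI_Veh (log2 -0.28, SE 0.98, adjusted p = 0.850, and log2 1.22 without sham 3).

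Mmp8, neutrophil collagenase, measured 14.6, 11.4 and 96.4 CPM in sham, 14.2, 17.7 and 18.4 in SCI_Veh and 9.04, 28.4 and 44.9 in SCI_ALA. A single library, sham 3, weighed most: the fitted log2 value was -1.28 with it (SE 0.91, adjusted p = 0.310) and 0.39 without it. The summed CPM of the 10 neutrophil markers was 136, 79.9 and 697 in sham, 106, 87.9 and 229 in SCI_Veh and 134, 555 and 544 in SCI_ALA. Sham 3 and SCI_ALA 2 and 3 were thus the highest libraries for Mmp8, for Mmp9 and for the neutrophil markers, of which none was at 0 in all libraries; their part in these values was not tested. Mmp13, collagenase 3, ranged from 0.524 to 17.7 CPM in sham and 1.22 to 24.9 in SCI_Veh, with log2 0.39 (SE 1.46, adjusted p = 0.860). Without SCI_Veh 3 that value was -2.13. With standard errors this large, changes of several-fold in Mmp8, Mmp9 and Mmp13 were not detectable.

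Mmp3, Mmp7, Mmp8, Mmp12 and Mmp13 belong to a single run of genes. On chromosome 8 of Rnor_6.0, from 5522739 to 5901049, 10 Mmp genes follow one another over 378 kb with 0 other genes of the table between them. Of these, 5 are members and 3 were called in SCI_Veh against sham, Mmp12, Mmp3 and Mmp7. These 3 entered through the injured libraries, so their direction was fixed by the count rule. The other 5, Mmp1, Mmp1b, Mmp10, Mmp20 and Mmp27, had 0 to 29 counts over all 9 libraries. Mmp13 at one side of Mmp12 and Mmp3 and Mmp8 at the other did not pass, with wide 95% intervals of the log2 change (-3.05 to 3.82 for Mmp13 and -3.43 to 0.87 for Mmp8). Differences between these neighbours were not tested.

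**Figure D3:**
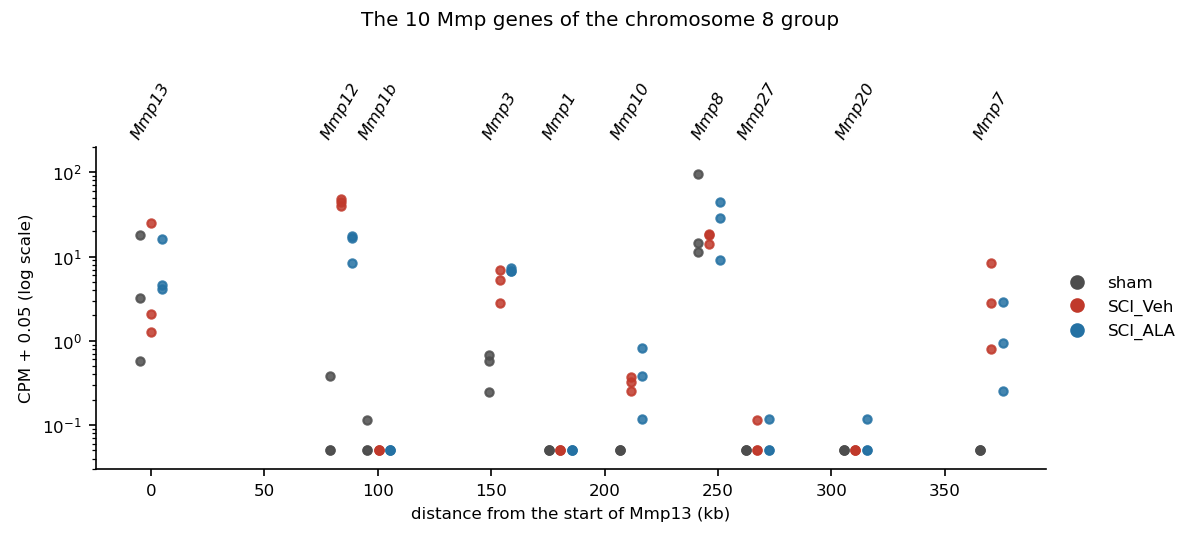
Level of the 10 Mmp genes of the chromosome 8 run in each library (CPM + 0.05, log axis) by distance of the gene's start from that of Mmp13; points of the 3 groups are set side by side. Mmp12 has 39.4 to 47.5 CPM in SCI_Veh and at most 0.328 in sham, whereas at Mmp8 the highest point is a sham library at 96.4 CPM.

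The promoters of these neighbours are shown because inducible MMP genes are textbook targets of AP-1, the Fos and Jun factor that binds TGAGTCA. RefSeq promoter windows (build GRCr8, 250 bases before to 50 after the start) were found for 36 of the 51 members, and for all 10 genes of the run. TGAGTCA, read on both strands, was present in 5 of the 36 members (13.9%, with 43 windows among them), and in 5.04% of all 27457 genes of the table (4.63% of 33469 windows of the same length). The members were Adam19 and, all in the run, Mmp3, Mmp7, Mmp12 and Mmp13. No other motif was searched. In the run it was found in 6 of 10 genes, 61 to 87 bases before the start. Those 6 include the called Mmp3, Mmp7 and Mmp12, Mmp13, which did not pass, and Mmp1 and Mmp10, which were below the count rule. The 150 bases before the start of the 5 members are as follows, 5′ to 3′, with the motif in capitals; the Mmp13 window holds it as TGACTCA, its reverse complement.

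Mmp13 (chr8:12782679-12782828, plus strand): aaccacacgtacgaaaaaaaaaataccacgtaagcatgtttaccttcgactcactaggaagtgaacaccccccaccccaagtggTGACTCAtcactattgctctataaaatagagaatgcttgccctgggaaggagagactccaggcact
Mmp12 (chr8:12866502-12866651, plus strand): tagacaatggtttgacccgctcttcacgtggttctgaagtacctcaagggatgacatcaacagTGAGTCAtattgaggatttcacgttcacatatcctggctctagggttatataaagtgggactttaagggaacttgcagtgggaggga
Mmp3 (chr8:12925131-12925280, plus strand): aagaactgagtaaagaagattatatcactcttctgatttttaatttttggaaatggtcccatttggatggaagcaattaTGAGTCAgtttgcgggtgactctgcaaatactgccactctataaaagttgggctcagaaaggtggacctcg
Mmp8 (chr8:13008740-13008889, plus strand): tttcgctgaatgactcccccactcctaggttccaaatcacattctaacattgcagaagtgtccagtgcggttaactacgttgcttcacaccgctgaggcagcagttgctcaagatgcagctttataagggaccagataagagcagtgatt
Mmp7 (chr8:13132893-13133042, plus strand): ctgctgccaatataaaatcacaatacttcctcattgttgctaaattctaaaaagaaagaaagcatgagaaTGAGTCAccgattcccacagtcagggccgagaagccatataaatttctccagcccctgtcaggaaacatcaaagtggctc

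In Mmp12 the motif begins 87 bases before the start, in Mmp7 80, in Mmp3 71 and in Mmp13 66. The Mmp8 window has no match. A match is a string of letters and does not show binding, and no relation between the motif and the changes was tested.

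Of the membrane-bound MMPs, Mmp14 and Mmp16 were higher with injury, and Mmp15 was the single member called between the injured groups. Mmp14, the membrane-type MMP that activates the Mmp2 precursor, measured 60.3, 32.7 and 50.6 CPM in sham, 83.2, 118 and 56.2 in SCI_Veh and 68.5, 73.5 and 44.9 in SCI_ALA. SCI_Veh and sham overlapped (log2 0.84, SE 0.29, adjusted p = 0.0420). The call was lost without sham 2 (0.151), sham 3 (0.0873), SCI_Veh 1 (0.0806), SCI_Veh 2 (0.191), SCI_ALA 1 (0.0607) or SCI_ALA 2 (0.0506). Mmp16, another membrane-type MMP, measured 11.8, 11.3 and 15.3 CPM in sham, 25.8, 19.9 and 17.9 in SCI_Veh and 14.7, 15.3 and 13.7 in SCI_ALA. All SCI_Veh libraries were above all others (SCI_Veh against sham log2 0.72, SE 0.20, adjusted p = 0.0150, and 0.0741 without SCI_Veh 1).

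Of the ADAMs, 10 of 11 tested members were called in SCI_Veh against sham, beside 38.0% of all tested genes. Adam8, a sheddase of leukocytes, rose from 1.18, 0.158 and 1.53 CPM in sham to 35.3, 43.4 and 31.4 in SCI_Veh and 24.1, 33.6 and 29.7 in SCI_ALA. No sham library came near the injured ones, and the injured groups overlapped. Its log2 change was 5.21 (SE 0.43, adjusted p = 8.06e-06) in SCI_Veh and 4.88 (adjusted p = 1.52e-05) in SCI_ALA. Adam8 (ENSRNOG00000017897) lies on chromosome 1, 212317848 to 212330349, minus strand of Rnor_6.0.

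Adam12, a protease found in regenerating muscle and fibrotic tissue, rose from 1.57, 0.237 and 1.27 CPM in sham to 7.21, 13.1 and 5.47 in SCI_Veh and 7.30, 5.48 and 6.94 in SCI_ALA (log2 3.03 and 2.65, SE 0.53 each, adjusted p = 0.000978 and 0.00265). Both injured groups lay wholly above sham. Adam15 had the highest mean FPKM of the ADAMs in each group, in sham within the spread of Adam10 (25.9 ± 2.64 against 21.4 ± 3.61, SD, n = 3). It had 87.7, 79.1 and 70.8 CPM in sham, 150, 145 and 130 in SCI_Veh and 140, 139 and 149 in SCI_ALA. Its rise was small and even, with log2 0.84 (SE 0.14, adjusted p = 0.000627) and 0.85 (adjusted p = 0.000739), and the interval of the difference between the injured groups was -0.29 to 0.30.

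Adam10 and Adam17 are the main sheddases of the cell surface, Adam10 of Notch and the amyloid precursor protein and Adam17 of tumour necrosis factor and its receptors. Adam17 measured 40.1, 29.6 and 44.0 CPM in sham, 77.4, 71.9 and 67.5 in SCI_Veh and 38.1, 50.7 and 51.1 in SCI_ALA. SCI_Veh lay wholly above the other groups, which overlapped with each other. The log2 change was 0.93 in SCI_Veh against sham (SE 0.18, adjusted p = 0.00177), -0.63 in SCI_ALA against SCI_Veh (95% interval -1.02 to -0.24, adjusted p = 0.196) and 0.30 in SCI_ALA against sham (adjusted p = 0.223). Adam10 measured 86.7, 66.3 and 91.5 CPM in sham, 127, 157 and 103 in SCI_Veh and 117, 106 and 89.3 in SCI_ALA. SCI_Veh did not overlap with sham (log2 0.66, SE 0.19, adjusted p = 0.0168), with 0.0514 without sham 2 and 0.0849 without SCI_Veh 2. Adam9 and Adam19 also rose in SCI_Veh (log2 0.51 and 0.70, adjusted p = 0.0314 and 0.0185). The Adam9 call was lost without sham 1 (0.0648), sham 2 (0.0919), SCI_Veh 2 (0.125) or SCI_Veh 3 (0.0632), and that of Adam19 without SCI_Veh 2 (0.0712).

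The 3 ADAMs that fell with injury, Adam11, Adam22 and Adam23, are the neuronal ADAMs that lack protease activity and bind LGI proteins at synapses and axons. Adam11 fell from 17.4, 15.9 and 26.5 CPM in sham to 5.21, 5.34 and 7.83 in SCI_Veh and 5.83, 4.65 and 2.82 in SCI_ALA (log2 -1.70 and -2.17, SE 0.31 in SCI_Veh, adjusted p = 0.00136 and 0.000409). No injured library reached the sham range. Adam22 went from 4.46, 3.80 and 9.73 CPM in sham to 2.96, 2.0 and 1.21 in SCI_Veh and 2.14, 1.94 and 1.79 in SCI_ALA (log2 -1.54 and -1.61, adjusted p = 0.0185 and 0.0174). Both injured groups lay below sham, but sham 3 weighed on the size. For SCI_Veh the adjusted p of Adam22 was 0.105 without sham 3, 0.0581 without SCI_Veh 2 and 0.0710 without SCI_Veh 3. For SCI_ALA it was 0.0950 without sham 3, 0.0569 without SCI_ALA 2 and 0.0623 without SCI_ALA 3. Adam22 shares a stretch of the same strand with Dbf4, which had 166 counts against 442.

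Adam23 went from 27.0, 16 and 40.6 CPM in sham to 13.7, 8.54 and 16.7 in SCI_Veh and 15.9, 12.3 and 11.1 in SCI_ALA. One SCI_Veh library reached into the sham range (log2 -1.10, SE 0.33, adjusted p = 0.0210, with 0.103 without sham 3, 0.0551 without SCI_Veh 1 and 0.0877 without SCI_Veh 2). Their ligand genes Lgi1 and Lgi3 were lower in SCI_Veh as well (log2 -2.08 and -1.57, adjusted p = 1.32e-05 and 0.000686). The summed CPM of the 9 neuron markers was 4429 to 6930 in sham, 1769 to 2553 in SCI_Veh and 2121 to 2923 in SCI_ALA; its part in the fall of these ADAMs was not tested.

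**Figure D4:**
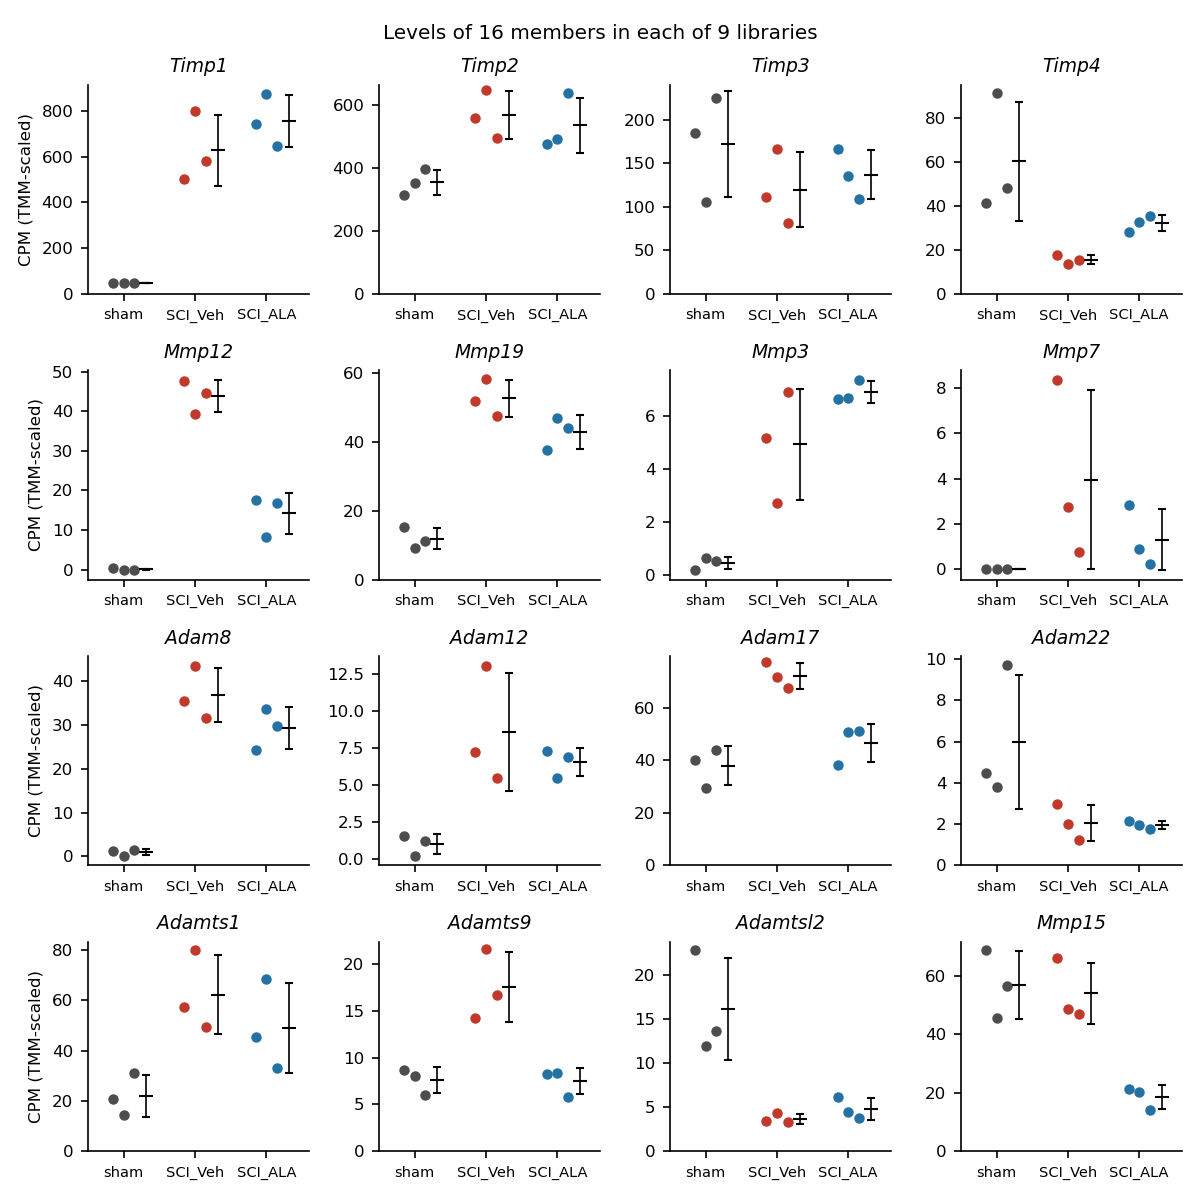
CPM of 16 members in each of the 9 libraries, with the mean and SD of each group of 3 beside the points; each panel has its own linear axis. Timp1, Mmp12, Mmp19, Mmp3, Adam8 and Adam12 lie higher in all injured libraries than in sham, and Mmp15 lies lower in the 3 SCI_ALA libraries than in the other 6.

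Of the ADAMTS proteases, 5 of 17 were called in SCI_Veh against sham, beside 38.0% of all tested genes. Adamts1, which cleaves aggrecan and versican, rose from 20.7, 14.2 and 30.9 CPM in sham to 57.5, 80.0 and 49.4 in SCI_Veh and 45.2, 68.4 and 33.0 in SCI_ALA. All injured libraries were above sham (log2 1.50, SE 0.32, adjusted p = 0.00370 in SCI_Veh; log2 1.15, adjusted p = 0.0172 in SCI_ALA). The second p was 0.0624, 0.0622 and 0.0763 without sham 1, sham 2 and SCI_ALA 2.

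Adamts9, a secreted protease of versican and aggrecan, measured 8.72, 8.07 and 6.0 CPM in sham, 14.3, 21.6 and 16.7 in SCI_Veh and 8.24, 8.4 and 5.84 in SCI_ALA. SCI_Veh stood wholly above the other groups, which overlapped. The log2 change was 1.21 in SCI_Veh against sham (SE 0.25, adjusted p = 0.00292), -1.22 in SCI_ALA against SCI_Veh (95% interval -1.77 to -0.68, adjusted p = 0.108) and -0.02 in SCI_ALA against sham (adjusted p = 0.961). Adamts7, which cleaves the cartilage matrix protein encoded by Comp, was higher in both injured groups (log2 1.64 and 1.65, adjusted p = 0.00644 and 0.00722).

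Adamts13, which cleaves von Willebrand factor, was called higher although its groups overlapped. It measured 0.787, 2.61 and 0.933 CPM in sham, 6.31, 2.40 and 5.06 in SCI_Veh and 5.56, 4.58 and 5.08 in SCI_ALA (SCI_Veh against sham log2 1.68, adjusted p = 0.0199). Without sham 1, sham 3 or SCI_Veh 1 that p was 0.0624, 0.0575 and 0.0721, and without sham 2 the log2 change was 2.39. It overlaps Cacfd1 on the same strand, which had 2141 counts against 491 and a log2 change of -0.03 (adjusted p = 0.934), so its low counts are uncertain. In SCI_ALA against sham, Adamts13 had log2 1.82 (adjusted p = 0.0155, and 0.0505 without sham 1).

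Adamts17 fell, from 2.23, 3.72 and 2.80 CPM in sham to 0.837, 0.600 and 1.55 in SCI_Veh, with 1.27, 2.08 and 2.20 in SCI_ALA. SCI_Veh did not overlap with sham (log2 -1.54, SE 0.49, adjusted p = 0.0266), and the call was lost without sham 2 (0.0714), SCI_Veh 1 (0.0855) or SCI_Veh 2 (0.0975). The aggrecanases Adamts4 and Adamts5 did not pass in edgeR. Adamts4 measured 113, 54.1 and 43.1 CPM in sham, 89.2, 51.6 and 62.9 in SCI_Veh and 51.9, 43.3 and 34.5 in SCI_ALA, and its log2 value of -0.05 (SE 0.34, adjusted p = 0.924) was 0.50 without sham 1. In SCI_ALA against sham Adamts4 had log2 -0.70 (adjusted p = 0.139), and it was called with the replicate block (log2 -0.60, adjusted p = 0.0484; range over all settings 0.0484 to 0.689). Adamts5 measured 2.82, 7.12 and 14.5 CPM in sham, 8.37, 20.3 and 8.71 in SCI_Veh and 21.6, 15.3 and 20.2 in SCI_ALA. SCI_ALA lay above all of sham, with log2 1.23 (adjusted p = 0.0949, 0.0378 by DESeq2 and 0.0138 without sham 3; range over all settings 0.0138 to 0.363).

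ADAMTS-like proteins share the noncatalytic domains of ADAMTS proteases and have no protease domain. Adamtsl2, which binds fibrillin, fell from 22.7, 12 and 13.7 CPM in sham to 3.41, 4.27 and 3.24 in SCI_Veh and 6.10, 4.44 and 3.78 in SCI_ALA. All sham libraries were above all injured ones (log2 -2.15, SE 0.31, adjusted p = 0.000292 in SCI_Veh; log2 -1.75, adjusted p = 0.00122 in SCI_ALA). Adamtsl3 fell from 21.6, 18.0 and 15.4 CPM to 6.44, 9.27 and 6.75 in SCI_Veh and 8.31, 7.77 and 7.69 in SCI_ALA (log2 -1.29 and -1.21, SE 0.22 in SCI_Veh, adjusted p = 0.000942 and 0.00170). Adamtsl5 was higher in SCI_Veh (log2 1.08, adjusted p = 0.0332), a call lost without sham 1 (0.0882), sham 2 (0.0597), SCI_Veh 1 (0.0591) or SCI_Veh 2 (0.122).

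Alpha-lipoic acid was compared with saline after injury. In SCI_ALA against SCI_Veh, 1 of 50 members was called beside 0.120% of all genes, of which 20 passed (0.0779% higher and 0.0420% lower). DESeq2 called 4 members, beside 2.38% of all genes. At an unadjusted p below 0.05, 1 member was higher and 6 were lower, beside 6.31% and 5.98% of all genes. The groups did not overlap for 1 member that was higher and 9 that were lower in SCI_ALA, beside 11.6% and 12.2%. The median log2 change was -0.19, beside -0.008 over all genes.

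The member called was Mmp15, a membrane-type MMP that lies on chromosome 19, 10079765 to 10101451, minus strand of Rnor_6.0 (ENSRNOG00000012622). It measured 69.0, 45.7 and 56.4 CPM in sham, 66.2, 48.8 and 47.1 in SCI_Veh and 21.4, 20.1 and 14 in SCI_ALA. Sham and SCI_Veh overlapped throughout, and all 3 SCI_ALA libraries were below the other 6. The log2 change was -1.54 in SCI_ALA against SCI_Veh (SE 0.22, 95% interval -2.02 to -1.07, adjusted p = 0.0483), -1.62 in SCI_ALA against sham (adjusted p = 0.000225) and -0.08 in SCI_Veh against sham (adjusted p = 0.802). The first sits at the threshold. Its adjusted p was 0.0507 without sham 3, 0.173, 0.121 and 0.125 without SCI_Veh 1, 2 and 3, and 0.0748, 0.157 and 0.124 without SCI_ALA 1, 2 and 3, with log2 values from -1.67 to -1.36 and adjusted p from 3.66e-07 to 0.173 over all settings. In FPKM, Mmp15 was 11th among members in sham, 13th in SCI_Veh and 24th in SCI_ALA.

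DESeq2 added Adamts9, Mmp12 and Timp4 to Mmp15. The log2 change of Mmp12 between the injured groups was -1.62 (95% interval -2.42 to -0.82, edgeR adjusted p = 0.129). The members with an unadjusted p below 0.05 were Mmp15, Adamts9, Mmp12, Adam17, Mmp16 and Adam19, all lower in SCI_ALA, and Timp4, which was higher. Mmp16 had log2 -0.54 (adjusted p = 0.313) and Adam19 -0.47 (adjusted p = 0.383). This comparison and SCI_Veh against sham share the SCI_Veh libraries, so a chance high or low value there moves both.

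Against sham, 20 of 50 members were called in SCI_ALA, 13 higher and 7 lower, beside 33.1% of all genes (17.3% higher and 15.8% lower). All SCI_ALA libraries lay above all of sham for 15 members and below for 9, beside 23.4% and 22.4% of all genes. Here too neither count of lower members exceeded its share of all genes. The median log2 change was 0.26, beside -0.009 over all genes. Called members numbered 4 of 8 secreted MMPs, all higher, and 3 of 4 TIMPs. Of these MMPs, Mmp3, Mmp7 and Mmp12 had entered through the injured libraries, where they had to be higher. Timp4 was the lower TIMP (log2 -0.91, adjusted p = 0.0191, with 0.0644 and 0.0570 without SCI_ALA 1 and 2). Among 11 ADAMs 4 were higher and 3 lower, among 17 ADAMTS proteases 3 were higher, and of the ADAMTS-like genes 2 were lower. Of these ADAMs, Adam9 (log2 0.50, adjusted p = 0.0408) lost its call in 10 of 24 settings. Adam23 (log2 -1.09, adjusted p = 0.0249) lost its call in 6 of 24. Of 6 membrane-bound MMPs, 1 was lower, Mmp15. This comparison shares libraries with both others.

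Levels of Mmp12 and Adam8 are set beside markers of phagocytic macrophages, since both are known products of these cells. The summed CPM of the 10 markers was 714 to 823 in sham, 17215 to 21381 in SCI_Veh and 7170 to 10124 in SCI_ALA. Between the injured groups edgeR called 0 of the 10, with a median log2 change of -0.43. At an unadjusted p below 0.05, 4 were lower, beside 5.98% of all genes, and DESeq2 called 4, beside 2.38%. Spp1, osteopontin, at 11477 CPM in SCI_Veh and 3352 in SCI_ALA, made up a large part of the sum. Mmp12 had non-overlapping injured groups, like the marker sum, and Adam8 had overlapping ones. The part of these cells in the member values was not tested.

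**Figure D5:**
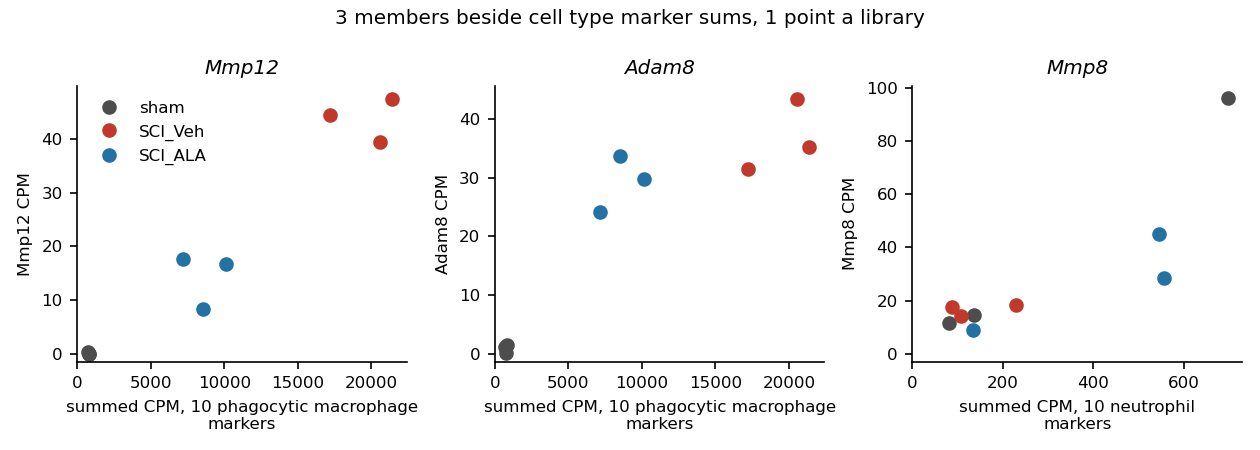
CPM of Mmp12 and Adam8 against the summed CPM of 10 phagocytic macrophage markers, and of Mmp8 against that of 10 neutrophil markers, 1 point a library. SCI_ALA libraries lie between sham and SCI_Veh on the macrophage axis (7170 to 10124 CPM); on the neutrophil axis, sham 3 stands apart at 697 CPM with Mmp8 at 96.4 CPM.

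Genes that activate, block or carry metalloproteases were examined in a list of 35, of which 34 were tested and Papln was not. In SCI_Veh against sham 13 of the 34 were higher and 8 lower, beside 19.5% and 18.5% of all genes, so the lower count lies near the background. The median log2 change was 0.42, beside 0.003 over all genes. Plau, urokinase, which makes plasmin, was 42.6-fold higher (log2 5.41, SE 0.35, adjusted p = 1.66e-06), and its receptor Plaur had log2 3.69 (adjusted p = 1.40e-05). Furin, a convertase that removes the inhibitory part of membrane-type MMPs and ADAMs, was 4.80-fold higher (log2 2.26, adjusted p = 5.15e-06). Reck, a membrane-anchored inhibitor of MMPs, was lower (log2 -1.12, SE 0.26, adjusted p = 0.00502).

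Cofactors of Adam17 and Adam10 were called in both directions. Rhbdf2, the inactive rhomboid that carries Adam17 to the cell surface, was 4.79-fold higher (log2 2.26, adjusted p = 5.14e-05). Its partner Frmd8 and the related Rhbdf1 had log2 0.77 and 0.58 (adjusted p = 0.00121 and 0.0237). Of the tetraspanins that guide Adam10, Tspan15 and Tspan33 were lower (log2 -1.07 and -1.59, adjusted p = 0.0127 and 0.000384) and Tspan10 was higher (log2 3.17, SE 0.79, adjusted p = 0.00815). Tspan5, Tspan14 and Tspan17 did not pass, with log2 -0.27, 0.49 and -0.54. By edgeR, 0 of the 34 were called between the injured groups, beside 0.120% of all genes. At an unadjusted p below 0.05, 4 of them were higher and 8 lower there, beside 6.31% and 5.98% of all genes. DESeq2 called 2 higher and 3 lower, beside 2.38% of all genes in either direction. Against sham, SCI_ALA had 11 higher and 6 lower, beside 17.3% and 15.8% of all genes; here too the lower count lies near the background.

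In a list of 32 substrates, 31 were tested, Tnf having 2 counts. In SCI_Veh against sham 16 of the 31 were higher and 5 lower, beside 19.5% and 18.5% of all genes, with a median log2 change of 0.94. Proteoglycans of the lectican family differed: Vcan and Ncan were higher (log2 2.66 and 1.65, adjusted p = 3.13e-06 and 0.00101), Bcan was lower (log2 -1.67, adjusted p = 0.000234) and Acan did not pass (log2 -1.47, adjusted p = 0.160). Tnc, tenascin C, had log2 4.64 (SE 0.52, adjusted p = 0.000132). Transcripts of most of the listed proteins known to be shed by Adam17 or Adam10 were higher. Sdc1, syndecan 1, had log2 3.28 (adjusted p = 5.14e-07), and Trem2 and Tnfrsf1b had log2 3.00 and 2.01 (adjusted p = 2.86e-06 and 2.75e-05). Mertk, Il6r, Hbegf, Csf1r and Tnfrsf1a were called higher with log2 1.67, 1.64, 1.48, 1.48 and 1.22. Trem2 is also in the list of phagocytic macrophage markers and Csf1r in that of microglia. The part of these cells in the substrate values was not tested. Notch1, Sdc4 and Nrg1 did not pass (log2 0.78, -0.34 and -0.88), and Cx3cl1 and App were lower (log2 -0.94 and -0.59, adjusted p = 0.0250 and 0.0104). Between the injured groups 1 substrate was called, beside 0.120% of all genes. It was Vcan, lower in SCI_ALA (log2 -1.21, SE 0.19, adjusted p = 0.0483). With the replicate block, or without SCI_ALA 2, 0 genes were called in this comparison, so the Vcan call was lost. At an unadjusted p below 0.05, 2 substrates were higher and 10 lower, beside 6.31% and 5.98% of all genes. DESeq2 called 1 higher and 3 lower, beside 2.38% of all genes. Against sham, SCI_ALA had 13 higher and 4 lower, beside 17.3% and 15.8% of all genes. These are transcripts of substrates and say nothing of their cleavage.

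The remaining genes with matching symbols were rare. Of the 23 below the count rule, 11 had 0 counts in every library, and the highest total was 42, for Adam4. At the threshold, Adam32 was just inside the third highest of its counts being 10, and Adam4 just outside with 8. Adam32 was a member but had too few counts for the test, with 0 to 14 in each library. Over the other members the third highest ran from 21 to 11117.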

How the data were processed

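RNA sequencing of 9 rat spinal cord libraries was used. The authors deposited a table of raw counts per gene. Per the submitters' processing notes, HISAT2 2.0.5, featureCounts 1.5.0-p3 and DESeq2 1.20.0 were among the tools and Rnor_6.0 was the build; the strand setting is not given in the sources used here. A matching FPKM table, deposited by the authors, is normalised to gene length and library size. Replicates differed by more than sampling noise in every pair (chi-square divided by its degrees of freedom 17.83 to 64.03).

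Counts were filtered with filterByExpr (minimum count 10, minimum total 15), which left 16678 genes, scaled with TMM factors (0.8624 to 1.078) and fitted with the robust edgeR 4.0.16 quasi-likelihood model (R 4.3.3, limma 3.58.1) with group means over 9 libraries (6 residual degrees of freedom, median prior 5.852). P-values were adjusted by Benjamini-Hochberg over all genes tested, and intervals are 95% intervals of the fit. Folds against a group at 0 were bounded with 3 counts over the group, for counting error only. The procedure was tested on simulated data.

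The members, the gene lists and the tests were chosen with earlier results of these data known. Named were members called in any comparison, with values per library for the up to 8 with the smallest p in each direction in SCI_Veh against sham, the up to 4 between the injured groups, and a fixed set. Alternatives were RLE factors, library totals, other count filters, robust=FALSE, a replicate block, a fit restricted to the 2 groups compared, DESeq2 1.42.0, limma on log2(FPKM + 1) or log2(FPKM + 0.1), a minimum log2 fold change of 1, removal of the trend with gene length (loess, span 0.5) and each library left out. Promoter windows came from RefSeq (GRCr8), and figures from Python 3.11.15 with matplotlib 3.10.9. Protein sequences were not analysed here.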

Additional observations from a re-analysis of the deposited data

How the results depend on the processing

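Over 24 alternatives the number of members called stayed within 1.5 times in SCI_Veh against sham (27, range 19 to 29) and in SCI_ALA against sham (20, range 14 to 22). Over the same settings, 22.8% to 43.6% and 19.5% to 39% of all genes were called in these comparisons. Leaving out each library gave 19 to 28 in the first, beside 27.8% to 36.4% of all genes. Between the injured groups the 1 call, Mmp15, was lost (0 called) with library totals, a replicate block, robust=FALSE and the 3 limma fits on FPKM. These settings called 0% to 0.0193% of all genes. With only the 2 groups compared and with DESeq2, 4 members were called, beside 1% and 2.38% of all genes. Leaving out each library gave 0 to 2 members between the injured groups, beside 0% to 0.503% of all genes. Correlations of same-numbered deviations were -0.0855 to 0.18. With 3 libraries a group, these values cannot settle whether replicate numbers pair the libraries. With replicate numbers as a block, 27, 0 and 21 members were called, beside 37.3%, 0% and 32.2% of all genes. Mmp14 in SCI_Veh against sham lost its call in 15 settings, with adjusted p from 0.0154 to 0.191.

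The log2 values of members that had not passed turned sign in places, and the cause was not tested. In SCI_Veh against sham, Adamts4 was 0.029 with library totals, 0.032 with the block and 0.020, 0.028 and 0.020 in the limma fits (pseudocount 1, pseudocount 0.1, no filter). Mmp9 was 0.13 with the block and 0.14, 0.63 and 0.14 in the limma fits. With each library left out, Adamts4 ran from -0.30 to 0.50, Mmp9 from -0.84 to 1.22, Mmp15 from -0.23 to 0.10, Mmp8 from -1.73 to 0.39 and Mmp13 from -2.13 to 2.39. In SCI_ALA against SCI_Veh, Mmp13 was 1.19 with the block, 0.29, 0.67 and 0.29 in the limma fits and 0.11 without sham 2 and SCI_ALA 3, and Adam22 was 0.011 with limma (pseudocount 0.1). With each library left out, Mmp13 ran from -1.13 to 2.34, Timp2 from -0.23 to 0.029, Timp3 from -0.026 to 0.52 and Adam22 from -0.34 to 0.27. In SCI_ALA against sham, Mmp2 was -0.13 without sham 2 and SCI_ALA 3, and with each library left out Mmp2 ran from -0.023 to 0.41, Mmp8 from -1.12 to 1.09 and Mmp13 from -0.74 to 2.21. With 3 libraries a group, members of few counts or wide spread allow only large changes to be seen.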
